A study of Mus musculus with 10 samples.

Results

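Interferon-stimulated genes are transcribed when interferons bind their receptors and activate STAT factors. Type I interferons act mainly through a complex that holds Stat2 and Irf9 and binds the interferon-stimulated response element (ISRE) in promoters. Interferon gamma acts through the gamma-activated site of promoters and through Irf1. The products block viral replication, sense viral RNA, attack vacuoles that hold intracellular microbes, and cut and transport peptides for MHC class I. Cells without infection hold many of them at a low tonic level.

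The 37 genes described here were taken from a list of symbols that was chosen with earlier results of these data known. All 37 were found among the 55450 genes of the count table. They were divided by role into 27 type I targets (20 antiviral effectors, 3 RNA sensors and 4 transcription factors), 7 interferon-inducible GTPases and 3 antigen processing genes. The group names are loose, since Irf1, a factor tied to interferon gamma, stands among the type I targets. Messenger RNA came from peelings of the mouse corneal endothelium, the single sheet of cells that lines the inner face of the cornea. The mice were C57BL/6 at 12 weeks of age, either Slc4a11-/- (KO), a knockout of this membrane transporter of the endothelium, or Slc4a11+/+ (WT). The sources used here do not say how the Slc4a11 allele was made. There were 5 libraries per genotype, and the labels give the peelings of 6 eyes from 3 animals, pooled, for each of them. The labels name no treatment or infection of the mice.

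The labels were checked first. Slc4a11 stood at 3946, 4357, 3568, 3489 and 3597 CPM in WT 1 to WT 5, where CPM is the count scaled to the effective size of the library, and at 114, 101, 92.6, 99.6 and 70.1 CPM in KO 1 to KO 5. Total counts ranged from 36026193 to 51008996 per library. Summed corneal endothelial markers, among them Slc4a11 itself, ranged from 27618 to 31033 CPM in WT and from 23529 to 28338 CPM in KO. The loss of Slc4a11, at the levels given above, lowers the KO sums, so their difference is no measure of the other markers. Of these 15 markers 1 rose and 5 fell, with Slc4a11 among the 5. Summed keratocyte markers were higher, at 68555 to 105251 CPM in WT and 71731 to 96076 CPM in KO. The peelings therefore held stromal RNA as well. Of these 12 markers 0 rose and 2 fell, and 10 had a log2 fold change below 0. Summed epithelial markers ranged from 56.2 to 218 CPM in WT and stood at 2237, 664, 57.4, 255 and 4257 CPM in KO 1 to KO 5, and 12 of these 15 markers rose. Fewer cells of a type and less RNA per cell cannot be told apart in such pools.

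ISRE sequences were read from RefSeq promoter windows of GRCm38.p6, which run from 250 bases before to 50 bases after a gene's start. Of the 37 genes 30 had a window, and Ifi27, Mx1, Mx2, Oas2, Usp18, Dhx58 and Iigp1 had none. The letters searched were GAAANNGAAA on both strands. They were present in 17 of the 30 genes, against 3.99% of all 27025 genes with a window. By role they were present in 11 of 21 type I targets, in 6 of 6 GTPases and in 0 of 3 antigen processing genes. The letters TTCNNNGAA, the core of the gamma-activated site, were present in 9 of the 30 genes and in 9.55% of all genes. A match is a description of the letters and not a bound site.

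The stretches before the start are shown for 5 genes that were lower in KO and for 3 that did not pass the test, 5′ to 3′ on the gene's strand, with the ISRE letters in capitals. Those of Isg15, Irgm2 and Igtp belong to genes that did not pass.
Ifit3, chr19:34583348-34583441, plus strand: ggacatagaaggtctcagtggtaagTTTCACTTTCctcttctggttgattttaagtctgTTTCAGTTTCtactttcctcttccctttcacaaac
Ifit3b, chr19:34607744-34607837, plus strand: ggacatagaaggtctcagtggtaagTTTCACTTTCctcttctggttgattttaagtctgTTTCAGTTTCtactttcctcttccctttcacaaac
Rsad2, chr12:26456538-26456597, minus strand: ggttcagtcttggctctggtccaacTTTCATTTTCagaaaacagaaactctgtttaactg
Bst2, chr8:71537562-71537627, minus strand: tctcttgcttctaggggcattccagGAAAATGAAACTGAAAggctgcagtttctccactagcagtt
Gbp7, chr3:142530258-142530317, plus strand: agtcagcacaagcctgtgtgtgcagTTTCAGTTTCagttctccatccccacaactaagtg
Isg15, chr4:156200850-156200921, minus strand: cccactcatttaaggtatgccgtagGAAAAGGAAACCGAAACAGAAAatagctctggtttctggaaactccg
Irgm2, chr11:58214888-58214947, plus strand: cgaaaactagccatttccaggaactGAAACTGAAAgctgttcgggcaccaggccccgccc
Igtp, chr11:58199497-58199555, plus strand: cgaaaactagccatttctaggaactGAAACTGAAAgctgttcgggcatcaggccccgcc
The Ifit3 and Ifit3b stretches were identical over all 94 bases, and those of Irgm2 and Igtp matched at 57 of 59. Of the genes with a window, the letters were present in 6 of the 7 that fell, all but Ifi44, and in 11 of the 23 that did not pass. Genes with and without the letters therefore stood in both classes.

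All 37 genes had enough counts to be tested, KO against WT, in 1 edgeR quasi-likelihood fit over all genes. In KO 8 of them fell and 0 rose at an edgeR adjusted p under 0.05, beside 7.73% of all 17729 tested genes that fell and 7.59% that rose. The 8 were the GTPases Iigp1, Gbp2 and Gbp7 and the effectors Ifit3, Ifit3b, Ifi44, Rsad2 and Bst2. The other 29 did not pass. DESeq2 called 12 of the 37 lower, against 10.4% of all tested genes, and limma-voom 7, against 7.22%, and neither called any higher. At an unadjusted p under 0.05 in the same fit, 17 of the 37 were lower and 1 was higher, where all tested genes gave 15.7% and 15.4%. The median log2 fold change of the 37 was -0.18, against 0.00 over all tested genes, and 29 of 37 were below 0. Because of how the list was chosen, these counts describe it and are no test of it. Fold sizes of the 8 ran from 1.19 for Bst2 to 2.98 for Iigp1.

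**Figure D1:**
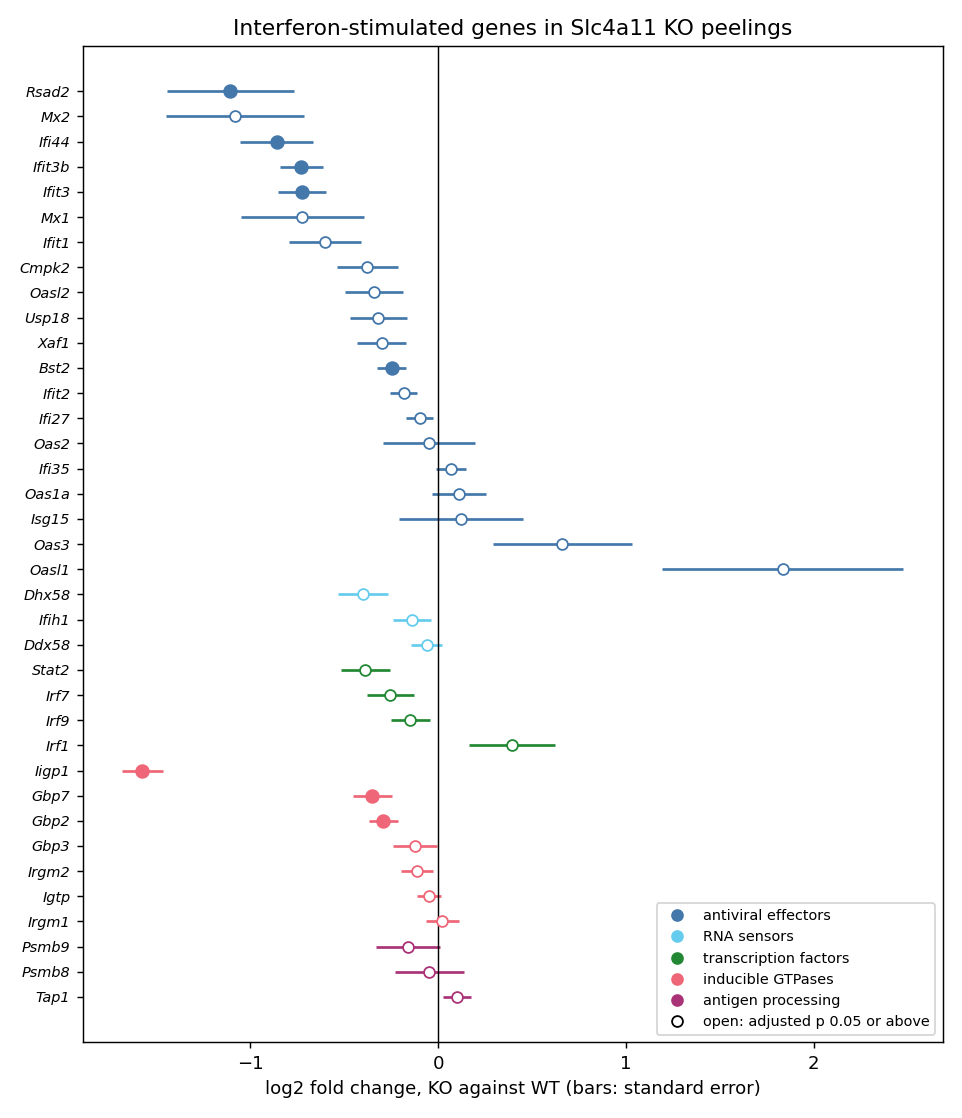
Log2 fold change of each of the 37 genes, KO against WT, on the x axis, with bars for the standard error. Genes are grouped and coloured by role, and filled points are the 8 that fell. Iigp1 lies apart at -1.57, and Oasl1 has the highest value and a wide error at 1.83 (SE 0.64).

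By role, 5 of the 27 type I targets and 3 of the 7 GTPases fell, and 0 of the 3 antigen processing genes did. The median log2 fold change was -0.26 for the type I targets, -0.12 for the GTPases and -0.05 for antigen processing. Within the type I targets it was -0.31 for the effectors, -0.20 for the transcription factors and -0.14 for the RNA sensors. No test of the difference between role groups was made. The GTPase median hides a wide spread, from -1.57 for Iigp1 to 0.02 for Irgm1. That of the type I targets hides a wider one, from -1.11 for Rsad2 to 1.83 for Oasl1. When KO was represented by KO 3 and KO 4 alone the 3 medians were -0.22, 0.00 and -0.28, so that antigen processing was then the lowest. Without WT 1, KO 3 or KO 4 the antigen processing median was above 0, at 0.01, 0.03 and 0.06.

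Iigp1 (ENSMUSG00000054072.12, chromosome 18, 60376027 to 60392634 of GRCm38, plus strand) encodes an effector GTPase of the IRG family, which coats and disrupts vacuoles of intracellular parasites. Its levels in WT 1 to WT 5 were 15.0, 16.3, 17.0, 13.5 and 14.9 CPM, and in KO 1 to KO 5 they were 4.77, 5.08, 6.39, 5.26 and 4.24 CPM. Every KO library lay below every WT library. WT and KO were free of overlap in this direction for 2 of the 37 genes, Iigp1 and Ifit3b, and for 6.16% of all tested genes. None of the 37 lay higher in every KO library, against 5.88% of all tested genes. Iigp1 fell 2.98-fold (log2 fold change -1.57, SE 0.11, edgeR adjusted p = 6.56e-06). This call was kept when each library was left out in turn (-1.66 to -1.51), on KO 3 and KO 4 alone (-1.39, edgeR adjusted p = 1.48e-04) and with the mean of epithelial markers as a covariate (-1.45).

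The other IRG members are regulators. Irgm1, Irgm2 and Igtp sit on the membranes of the cell itself and hold the effectors inactive there. Igtp, the most abundant GTPase of the list per exon length at 12.4 CPM per kilobase in WT, had 28.0, 24.2, 24.4, 24.5 and 24.3 CPM in WT 1 to WT 5. In KO 1 to KO 5 it had 23.5, 24.7, 26.4, 24.7 and 21.9 CPM, with KO 1 and KO 5 below the WT range and the rest inside it. Its log2 fold change was -0.05 (SE 0.06, edgeR adjusted p = 0.64), and Irgm2 and Irgm1 were at -0.11 (SE 0.08) and 0.02 (SE 0.09). Igtp and Irgm2 share 162 exonic bases on the same strand, so their counts are partly uncertain.

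The guanylate-binding proteins (Gbp) also act on such vacuoles. Gbp2 (ENSMUSG00000028270.12, chromosome 3, 142620602 to 142638008, plus strand) had 17.2, 15.5, 15.1, 16.9 and 16.2 CPM in WT and 12.4, 12.4, 12.5, 13.0 and 15.7 CPM in KO, in library order. KO 5 alone reached the WT range. Gbp2 fell 1.23-fold (log2 fold change -0.29, SE 0.08, edgeR adjusted p = 0.0244). Gbp7 (ENSMUSG00000040253.15, chromosome 3, 142530342 to 142550149, plus strand) had 19.3, 19.96, 27.2, 20.9 and 21.1 CPM in WT and 16.4, 18.2, 19.7, 16.1 and 14.5 CPM in KO. Only KO 3 reached into the WT range, and WT 3 stood above the rest. Gbp7 fell 1.27-fold (log2 fold change -0.35, SE 0.10, edgeR adjusted p = 0.0415). Gbp3, at -0.12 (SE 0.12), did not pass. Gbp7 shares 637 exonic bases with the pseudogene Gm43802 on the same strand. The Gbp2 call was lost without WT 4, WT 5, KO 1, KO 2 or KO 4, and the Gbp7 call in 8 of the 10 fits that left out 1 library, all but those without WT 1 or KO 3. Over the 10 fits the log2 fold changes of Gbp2 and Gbp7 were -0.36 to -0.27 and -0.41 to -0.26.

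**Figure D2:**
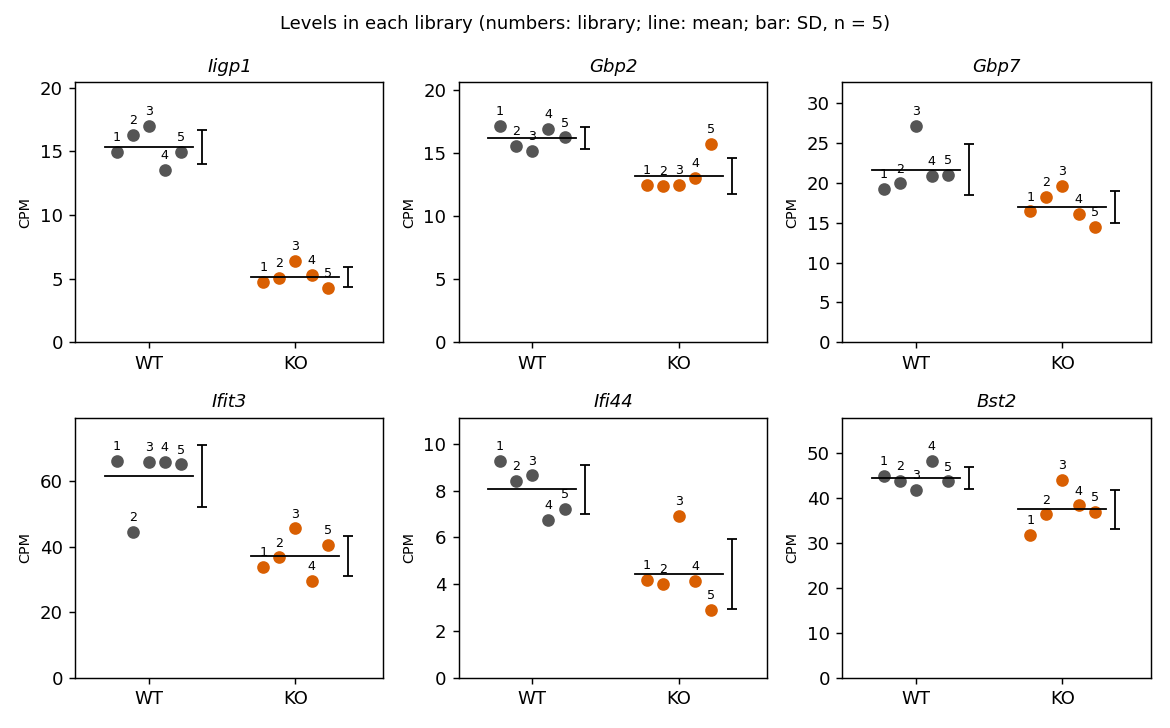
CPM in each library for 3 GTPases (upper row) and 3 effectors (lower row), WT in grey and KO in orange, with library numbers beside the points, lines for means and bars for the SD (n = 5). Iigp1 is separated between genotypes, while KO 3 is the highest KO library for Ifit3, Ifi44, Bst2, Gbp7 and Iigp1.

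Ifit3 and Ifit3b encode closely related proteins of the IFIT family, of which Ifit1 binds viral RNA. Ifit3 (ENSMUSG00000074896.3, chromosome 19, 34583531 to 34588731, plus strand) had 66.1, 44.6, 65.7, 65.9 and 65.1 CPM in WT and 33.7, 36.7, 45.5, 29.4 and 40.4 CPM in KO. WT 2 stood far below the other WT libraries and overlapped with KO 3. Ifit3 fell 1.65-fold (log2 fold change -0.73, SE 0.13, edgeR adjusted p = 0.00336). Ifit3b (ENSMUSG00000062488.9, chromosome 19, 34607970 to 34613401, plus strand) had 39.8, 28.9, 43.6, 40.2 and 42.7 CPM in WT and 22.2, 22.99, 27.7, 19.6 and 25.3 CPM in KO. Its groups did not overlap, and it fell 1.66-fold (log2 fold change -0.73, SE 0.12, edgeR adjusted p = 0.00176). Of the 36-base stretches of their transcripts, 58.5% for Ifit3 and 52.2% for Ifit3b also occur in another gene, most often in the other of the pair, beside the identical promoter stretches above. The pair is therefore uncertain as separate measurements, and the sources used here do not say how reads that fit several places were counted. With KO 3 and KO 4 alone Ifit3 was at -0.71 (edgeR adjusted p = 0.0524), and Ifit3b was still called.

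Ifi44 (ENSMUSG00000028037.13, chromosome 3, 151730922 to 151749960, minus strand), an interferon-induced cytoplasmic protein, had 9.27, 8.43, 8.65, 6.75 and 7.21 CPM in WT and 4.17, 4.02, 6.93, 4.13 and 2.89 CPM in KO. KO 3 was the one KO library within the WT range. Ifi44 fell 1.82-fold (log2 fold change -0.86, SE 0.19, edgeR adjusted p = 0.0119), and KO 3 and KO 4 alone gave -0.53 (edgeR adjusted p = 0.151). With the epithelial covariate it was at -0.62 (edgeR adjusted p = 0.054). Ifit3, Ifit3b and Ifi44 were called in every fit that left out 1 library.

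Rsad2, or viperin (ENSMUSG00000020641.16, chromosome 12, 26442746 to 26456452, minus strand), makes a chain-terminating nucleotide that stops viral polymerases. It was scarce, with 1.17, 0.559, 0.865, 1.51 and 0.573 CPM in WT and 0.381, 0.464, 0.695, 0.242 and 0.355 CPM in KO. KO 3 overlapped with WT. Rsad2 fell 2.15-fold (log2 fold change -1.11, SE 0.34, edgeR adjusted p = 0.0448). Bst2, or tetherin (ENSMUSG00000046718.8, chromosome 8, 71534255 to 71537456, minus strand), holds budding virions on the cell surface. It had 44.9, 43.7, 41.7, 48.2 and 43.6 CPM in WT and 31.7, 36.3, 44.0, 38.3 and 36.8 CPM in KO. KO 3 alone was inside the WT range, and Bst2 fell 1.19-fold (log2 fold change -0.25, SE 0.08, edgeR adjusted p = 0.0497). Rsad2 passed without WT 2, WT 5 or KO 3 and not without any 1 of the other 7 (-1.35 to -0.86 over the fits that left out 1 library). The Bst2 call was lost without any 1 library other than KO 3 (-0.31 to -0.19).

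The most abundant effector per exon length was Ifi27, a small interferon-induced membrane protein, at 149 CPM per kilobase in WT. It had 250.4, 218, 205, 212 and 206 CPM in WT and 183, 197, 224, 206 and 207 CPM in KO. The groups overlapped, and its log2 fold change was -0.10 (SE 0.07, edgeR adjusted p = 0.38). Bst2 and Ifit3 followed it per length, at 49.2 and 35.2 CPM per kilobase. At the other end were Oas3, Mx1 and Oas2 at 0.0557, 0.0940 and 0.114 CPM per kilobase. Mx1, an antiviral dynamin-like GTPase, carries a deletion in C57BL/6 and many other laboratory strains.

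Of the 15 effectors that did not pass, 10 were below 0 and 5 above. Ifit1 had 32.5, 24.9, 31.6, 29.9 and 29.7 CPM in WT and 14.4, 17.7, 33.0, 16.2 and 16.4 CPM in KO. In 4 of the KO libraries it was below all WT libraries, and KO 3 was above all of them. Its log2 fold change was -0.60 (SE 0.19, edgeR adjusted p = 0.0548), and without KO 3 it fell by 0.87 on the log2 scale. The dynamin-like Mx2 was at -1.08 (SE 0.37, edgeR adjusted p = 0.0664). Isg15, a ubiquitin-like protein that is conjugated to others, was at 0.12 (SE 0.33), and Usp18, which removes it and dampens the type I receptor, at -0.32 (SE 0.15). Of the oligoadenylate synthetases, which activate RNase L, Oas1a was at 0.11 and Oas2 at -0.05, and 65.7% of the 36-base stretches of Oas1a occur in another gene.

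Oasl1, which represses the translation of Irf7, had the highest log2 fold change of the list. It had 2.099, 1.59, 2.00, 0.880 and 0.928 CPM in WT and 4.77, 3.08, 0.891, 1.83 and 16.03 CPM in KO. KO 5, KO 1 and KO 2 were above every WT library, in the same order as their summed epithelial markers, while KO 3 and KO 4 lay inside the WT range. The log2 fold change was 1.83 (SE 0.64, edgeR adjusted p = 0.0731) with all libraries. It was 2.11 without KO 3, where it was called (edgeR adjusted p = 0.023), 0.83 without KO 5, -0.14 with KO 3 and KO 4 alone and -0.20 with the epithelial covariate.

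None of the 3 RNA sensors passed with edgeR, and 1 was lower at an unadjusted p under 0.05, Dhx58, which DESeq2 called. Ddx58 (RIG-I), the most abundant of them at 8.25 CPM per kilobase in WT, detects viral RNA ends. It had 60.3, 53.6, 60.4, 57.9 and 58.8 CPM in WT and 54.1, 55.5, 66.4, 56.1 and 46.5 CPM in KO, with KO 3 above every WT library and KO 5 below. Its log2 fold change was -0.06 (SE 0.08, edgeR adjusted p = 0.642). Ifih1 (MDA5), a sensor of long RNA, was at -0.14 (SE 0.10) and Dhx58 (LGP2), which modulates both, at -0.40 (SE 0.13, edgeR adjusted p = 0.0605).

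Among the transcription factors Irf9, the DNA-binding part of the type I complex, was the most abundant at 6.46 CPM per kilobase in WT. It had 39.2, 32.3, 35.6, 34.3 and 32.5 CPM in WT and 25.7, 29.3, 40.2, 30.2 and 31.2 CPM in KO. KO 3 was above all WT libraries and the other KO libraries were below all of them. The log2 fold change was -0.15 (SE 0.10, edgeR adjusted p = 0.35). Stat2, its partner, was at -0.39 (SE 0.13, edgeR adjusted p = 0.0623), and Irf7, which amplifies interferon production, at -0.26 (SE 0.12). Irf1, the factor most tied to interferon gamma, had 14.4, 16.2, 18.2, 12.5 and 14.7 CPM in WT and 19.1, 20.6, 12.5, 13.8 and 33.9 CPM in KO. As with Oasl1, the 3 KO libraries with the most epithelial transcripts were the highest. Irf1 was at 0.39 (SE 0.23, edgeR adjusted p = 0.261), at -0.21 with KO 3 and KO 4 alone and at -0.13 with the epithelial covariate.

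The 3 antigen processing genes lie near each other on chromosome 17. None was called by edgeR, DESeq2 or limma-voom in all libraries, and none had an unadjusted p under 0.05 in the edgeR fit. Tap1, a part of the peptide transporter that loads MHC class I, had 16.7, 15.8, 14.7, 17.1 and 15.6 CPM in WT and 17.2, 15.1, 19.1, 15.8 and 18.4 CPM in KO. The groups overlapped, at a log2 fold change of 0.10 (SE 0.08, edgeR adjusted p = 0.392). Psmb8, a catalytic subunit of the immunoproteasome, had 10.8, 9.59, 9.06, 8.67 and 8.59 CPM in WT and 8.75, 9.48, 7.02, 6.07 and 13.9 CPM in KO. KO 5 was above all WT libraries, and KO 3 and KO 4 were below. Psmb8 was at -0.05 (SE 0.18, edgeR adjusted p = 0.891) and Psmb9, its partner, at -0.16 (SE 0.17). With KO 3 and KO 4 alone, Psmb8 was called lower (-0.51, edgeR adjusted p = 0.0398). Psmb9 and Tap1 share 212 exonic bases on opposite strands. Whether counting used strand is likewise not stated in the sources used here, and 10 of the 37 genes share exonic bases with a gene on the opposite strand, 4 of them with one that was tested.

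KO 3 stood apart from the other KO libraries for these genes. It was the highest KO library for 24 of the 37, where it was so for 22.1% of all tested genes. KO 1 was the lowest for 13 and KO 4 for 11, against 15.3% and 18.4% of all tested genes. In KO 1, KO 2, KO 4 and KO 5 between 18 and 25 of the 37 genes lay below all WT libraries, and in KO 3 only 7 did. Over all tested genes, the share below all WT libraries was 20.4% in KO 3 and 21.96% to 29.9% in the other 4. The 7 genes of KO 3 are thus near the share that all genes had in that library, and the counts of the other 4 are above theirs.

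**Figure D3:**
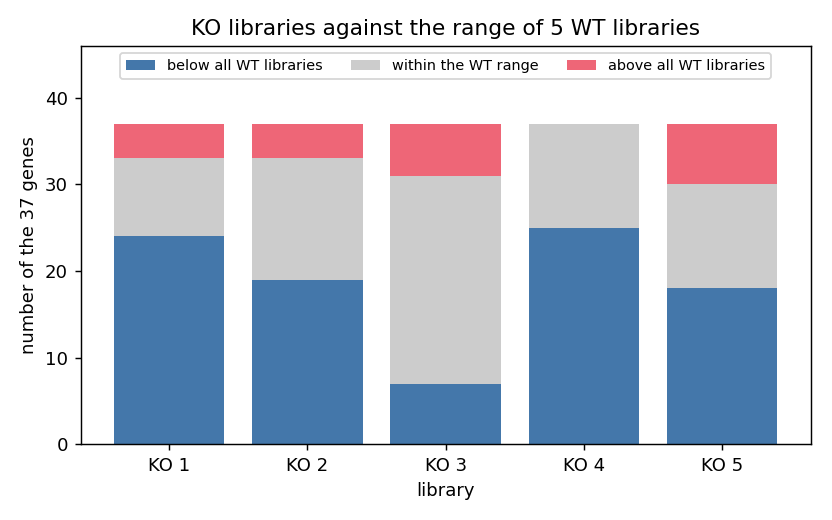
Number of the 37 genes in each KO library that lay below all 5 WT libraries (blue), within their range (grey) or above all of them (red). KO 3 has 7 below, 24 within and 6 above, while KO 4 has 25 below, 12 within and 0 above.

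The library differences ran through the type I targets and the GTPases together. The median over the 27 type I targets of the log2 ratio to the WT mean was -0.49, -0.26, -0.02, -0.41 and -0.27 in KO 1 to KO 5, against -0.10 to 0.14 in WT. For the 7 GTPases it was -0.38, -0.10, 0.07, -0.19 and -0.20 in KO 1 to KO 5, against -0.12 to 0.12 in WT. For the 3 antigen processing genes it was -0.10, -0.08, -0.08, -0.54 and 0.40 in KO, with KO 4 lowest and KO 5 highest. Summed epithelial markers were lowest in KO 3 among the KO libraries and next lowest in KO 4. Summed pigment and iris markers were highest in KO 3, at 24.7 CPM, against 13.3 to 16.5 CPM in the other KO libraries and 11.4 to 17.3 CPM in WT. The part of epithelial or pigment cell transcripts in these library differences was not tested. Without KO 3, 14 of the 37 genes fell, beside 8.29% of all genes tested in that fit, and 1 rose, which was Oasl1. KO 3 was the highest KO library for 24 of the 37, so leaving it out favours calls of lower genes, and this count is no separate evidence. All 8 genes named above were among the 14, and the others were Ifit1, Ifit2, Usp18, Dhx58, Irf9 and Stat2. The count that fell was 5 without WT 3, WT 5 or KO 2 and 4 without WT 4, KO 1 or KO 4.

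**Figure D4:**
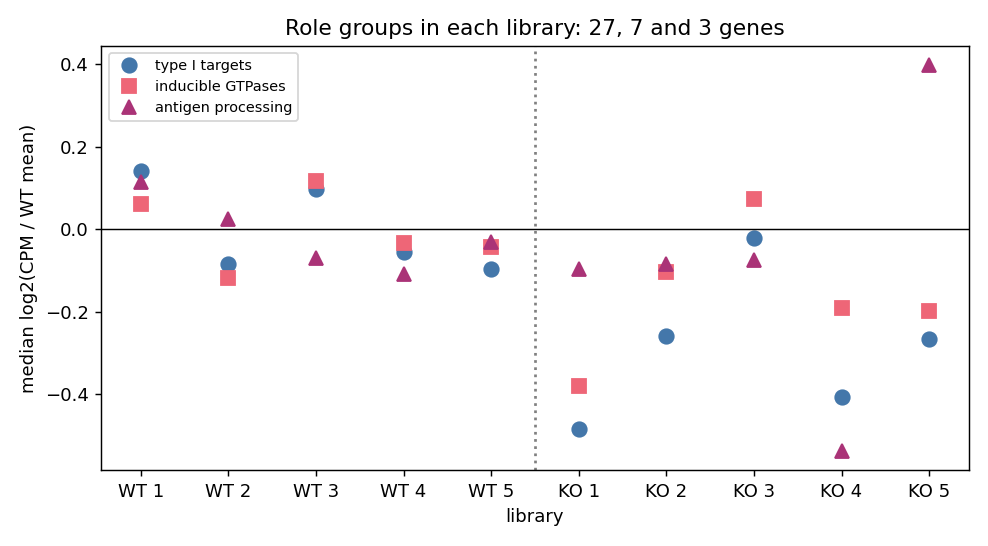
Median log2 ratio of CPM to the WT mean in each library, for the 27 type I targets (circles), 7 GTPases (squares) and 3 antigen processing genes (triangles). The WT libraries lie between -0.12 and 0.14. In KO the circles are lowest in KO 1 and near 0 in KO 3, and the triangles are spread from -0.54 in KO 4 to 0.40 in KO 5.

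When KO was represented by KO 3 and KO 4 alone, 3 of the 37 genes fell (Iigp1, Ifit3b and Psmb8) and 0 rose, beside 3.14% of the genes tested there that fell. With the epithelial covariate 4 fell (Iigp1, Ifit3, Ifit3b and Gbp2), beside 4.08% of all tested genes. Summed macrophage markers ranged from 219 to 359 CPM in WT and from 269 to 408 CPM in KO. With edgeR 0 of these 12 markers were called, and at an unadjusted p under 0.05 2 were higher and 0 lower. Dendritic cell markers without Bst2 summed to 97.8 to 138 CPM in WT and 137 to 236 CPM in KO. Of these 9 markers 6, among them Itgax, Flt3 and Siglech, were under 1 CPM in every library, 1 rose and 0 fell. That 1 was H2-Ab1, an MHC class II chain, which was higher in every KO library and rose 1.59-fold (edgeR adjusted p = 0.0259), while Cd74 was at 0.48 (SE 0.16, edgeR adjusted p = 0.0624). Lymphocyte markers summed to 0.164 to 0.482 CPM in WT and to 0.725 to 1.26 CPM in KO, without overlap. This gap came from Cd4, which made up most of each KO sum, and without Cd4 the sums of the 2 genotypes overlapped. The other 11 of 12 were under 1 CPM in every library and were not tested. The 1 that was tested, Cd4, was higher in every KO library and rose 4.41-fold, with group means of 0.185 and 0.832 CPM (edgeR adjusted p = 1.24e-04). The part of any of these cells in the values of the 37 genes was not tested.

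The remaining genes of the pathway came from 8 lists of 131 genes, of which 107 were tested, 7 rose and 13 fell, beside 7.59% and 7.73% of all tested genes. Their median log2 fold change was 0.00, as over all tested genes, and the same shares stand behind the counts of each list that follows. The number that fell was 6 without WT 3 or WT 5, 7 without KO 1 or KO 4 and 8 without WT 4, and 11 rose without KO 3. The ligands were hardly detected at this depth. Of 21 interferon genes 20 had 0 counts in every library, which allows at most 0.0588 to 0.0833 CPM per library (3 counts, counting error only), and Ifnz had 43 counts in all 10 together. Of 6 receptor chains Ifngr2, a chain of the interferon gamma receptor, rose 1.17-fold (edgeR adjusted p = 0.0285), and the call was lost without WT 2, WT 5 or KO 1 (0.19 to 0.26 over the fits that left out 1 library) and with KO 3 and KO 4 alone (0.12). Ifnar1 and Ifnar2, the type I receptor, were at 0.03 and 0.00 on the log2 scale. None of the 5 kinase and STAT genes passed with edgeR, and 2 were lower at an unadjusted p under 0.05. Among them Jak1 was the most abundant, with a WT mean of 348 ± 8.76 CPM and a KO mean of 345 ± 31.4 CPM (SD, n = 5).

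Of 15 genes of nucleic acid sensing upstream of interferon 4 rose, 1 fell and 10 did not pass, with a median log2 fold change of 0.18. Ticam1, the adaptor of Tlr3, rose, with 12.1 ± 0.644 CPM in the WT libraries and 15.2 ± 0.792 CPM in the KO libraries (SD, n = 5; log2 fold change 0.33, SE 0.06, edgeR adjusted p = 0.00465). Mavs, the mitochondrial adaptor of Ddx58 and Ifih1, rose, with 39.5 ± 1.34 CPM in the WT libraries and 47.2 ± 2.75 CPM in the KO libraries (log2 fold change 0.26, SE 0.05, edgeR adjusted p = 0.00652), and it lies 0.537 Mb from the knocked-out Slc4a11 on chromosome 2. The others were Irf3 and Myd88, which were named after their values were seen. Traf3, a ubiquitin ligase downstream of Mavs, fell 1.23-fold (edgeR adjusted p = 0.0204), a call that was lost without WT 3 (-0.24). With KO 3 and KO 4 alone, Ticam1 and Mavs were called and Irf3, Myd88 and Traf3 were not. Of 10 inhibitors Samhd1, which degrades nucleotides and limits interferon responses, rose, with 52.0 ± 2.86 CPM in the WT libraries and 73.1 ± 9.78 CPM in the KO libraries (log2 fold change 0.49, SE 0.09, edgeR adjusted p = 0.00316). Samhd1 was called in every fit that was run. It is on chromosome 2 like Slc4a11 but much further from it than Mavs, starting at 157097533 where Slc4a11 ends at 130697519.

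Of 13 other inducible GTPases 5 fell, none rose and 8 did not pass, with a median log2 fold change of -0.46. Gbp9 fell, with 3.20 ± 0.574 CPM in the WT libraries and 1.74 ± 0.278 CPM in the KO libraries (SD, n = 5; log2 fold change -0.87, SE 0.15, edgeR adjusted p = 0.00317). Gm4951, an IRG gene 0.128 Mb from Iigp1 on chromosome 18, fell, with 1.36 ± 0.236 CPM in the WT libraries and 0.727 ± 0.0947 CPM in the KO libraries (log2 fold change -0.90, SE 0.17, edgeR adjusted p = 0.00386). The others were Gbp6, Gbp8 and Gbp10, named after their values were seen, and 88.5% of the 36-base stretches of Gbp10 occur in another gene, most often Gbp6, as do 73% of those of Gbp6. Counted by chromosome with the 7 GTPases above, 0 of 7 GTPase genes on chromosome 11 fell, against 2 of 4 on chromosome 3, 4 of 6 on chromosome 5 and 2 of 3 on chromosome 18. The split by chromosome was made after the values were seen and the difference was not tested. On chromosome 11, Tgtp1, Tgtp2 and Gm12250 were scarce, with WT means of 0.354, 0.418 and 0.242 CPM, which leaves little room for a call. Of the 36-base stretches of Tgtp1 and Tgtp2, 83.5% and 89.5% occur in another gene. The spans of Gbp4, Gbp8 and Gbp9 on chromosome 5 overlap on the same strand, so their counts may be partly uncertain. Of their 36-base stretches 12.5%, 26.8% and 14.8% occur in another gene, in that order. With KO 3 and KO 4 alone, 1 of the 13 was called lower, which was Gbp8, and with the epithelial covariate Gbp9 and Gm4951 were. Without WT 3 or WT 5 the count was 3.

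Of 39 tested other interferon-stimulated genes 5 fell and 0 rose, with a median log2 fold change of -0.08, and at an unadjusted p under 0.05 in the edgeR fit 9 were lower and 5 higher. Ifi27l2a, a paralog of Ifi27, fell, with 15.7 ± 2.74 CPM in the WT libraries and 10.7 ± 1.82 CPM in the KO libraries (SD, n = 5; log2 fold change -0.56, SE 0.14, edgeR adjusted p = 0.0191), and Apol9a, an apolipoprotein L, fell 1.75-fold (edgeR adjusted p = 0.0326). Ifi27l2a was called in each fit that left out 1 library but not with the epithelial covariate or with KO 3 and KO 4 alone. The others were Lgals3bp, Slfn5 and Slfn8, named after their values were seen. Apol9a passed without WT 1, WT 2, KO 2 or KO 3 and not in the other 6 fits. The Lgals3bp call was kept in 2 of the 10 such fits (without WT 3 or KO 3), Slfn5 in 2 (without WT 2 or KO 2) and Slfn8 in 1 (without KO 3). Of 19 genes of MHC class I presentation 1 rose, 2 fell and 16 did not pass, with a median log2 fold change of 0.03. Erap1, which trims peptides in the endoplasmic reticulum, fell, with 82.6 ± 3.26 CPM in the WT libraries and 67.8 ± 5.11 CPM in the KO libraries (edgeR adjusted p = 0.00816). Nlrc5, the transactivator of class I genes, fell 1.73-fold (edgeR adjusted p = 0.0384) and the chaperone Calr rose 1.21-fold (edgeR adjusted p = 0.0305). The Nlrc5 call was kept without WT 1 or KO 5 and lost in the other 8 fits, and the Calr call was kept without WT 1, WT 4 or KO 3 and lost in the other 7. Erap1 was called in all 10 but not with the epithelial covariate. B2m and H2-K1, the light chain and a heavy chain of class I, were at 0.08 and 0.06.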

How the data were processed

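Gene expression was measured in 10 libraries, 5 per genotype, made with a TruSeq Stranded mRNA kit, per the labels' protocols. The deposited values are raw read counts per gene. Per the submitters' processing notes, the tools were Trim Galore 0.6.4, cutadapt 2.4, HISAT2 2.1.0 and featureCounts of Subread 1.6.4, with the genome GRCm38.p6. The sources used here give no annotation release, strand setting or rule for multi-mapping reads. All 55450 gene identifiers were found in GENCODE vM21, which gave symbols, positions and exon lengths.

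KO was compared with WT in R 4.3.3 by edgeR 4.0.16 (filterByExpr with minimum count 10 and minimum total 15, TMM scaling, quasi-likelihood F test, no covariates), with Benjamini-Hochberg adjustment over the 17729 genes tested and calls at an adjusted p under 0.05. Every adjusted p in the text is from this test or from the same test in a named alternative. The test was tried on simulated counts first. These were drawn gene by gene, without the shared differences in epithelial transcripts between the KO libraries. The trial therefore does not show how the test handles such differences. The reads carry no molecular identifiers, so bounds from counts cover counting error only.

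The members and lists were chosen with earlier results of these data known. No p was adjusted over the list and no list test was made. Per-library values were given for called members and for the most abundant member per exon length of each role. For the pathway lists, the 2 called genes with the smallest p in each direction were named, or the most abundant gene where none was called. Other genes named beside these were chosen after their values were seen. The alternatives were the size factors of DESeq2, upper quartile factors, total counts, DESeq2 1.42.0, limma-voom (limma 3.58.1), other filters, the replicate block, the epithelial covariate (mean log2 CPM, prior count 2), the log2 CPM of the Y-linked Ddx3y as a covariate, KO 3 and KO 4 only, and each library left out. Every library pair within a group differed beyond sampling noise (chi-square over its degrees of freedom 14.5 to 86.0). Each library is a pool of 3 animals, so p-values measure the spread between pools. Some genes are not reported here.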

Additional observations from a re-analysis of the deposited data

Results flagged for a closer look

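In 8 of 74 groups of 5 libraries, 1 library stood far from the other 4, by a gap of over 0.71 of the whole range, and chance flags about 1 in 20 such groups. In KO 3, Ifit1 was at 33.0 CPM against 14.4 to 17.7 in the other KO libraries. In WT 2, Ifit3 was at 44.6 CPM (others 65.1 to 66.1) and Ifit3b at 28.9 CPM (others 39.8 to 43.6), and these genes share sequence. In KO 5, Oasl1 was at 16.03 CPM (others 0.891 to 4.77) and Gbp2 at 15.7 CPM (others 12.4 to 13.0). Oas2 was at 0.716 CPM in KO 2 (others 0.413 to 0.456), Igtp at 28.0 CPM in WT 1 (others 24.2 to 24.5) and Gbp7 at 27.2 CPM in WT 3 (others 19.3 to 21.1).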

How the results depend on the processing

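Of 1191 recomputed log2 fold changes of single genes, 988 kept their direction and their side of the threshold. Another 153 lost a call, 22 gained a call and 28 changed sign. The genes were the 37 members and only those pathway genes that were called in the main test. A called gene can lose a call but not gain one, so the counts lost and gained cannot be weighed against each other. None of the members that rose or fell changed sign. The number of all genes that rose was 836 to 1532 when each library was left out, 598 with the epithelial covariate and 527 with KO 3 and KO 4 alone, against 1346. The number that fell was 965 to 1666, 723 and 578, against 1370. With total counts as the only scaling 1555 rose and 1054 fell, and DESeq2 gave 1730 and 1848. Of the 37 members 4 to 14 fell and 0 to 1 rose in the fits that left out 1 library, and 5 fell with total counts, 4 with the epithelial covariate and 3 with KO 3 and KO 4 alone. In the pathway lists 5 to 11 rose and 6 to 14 fell with 1 library left out, 4 rose and 2 fell with the covariate, and 4 rose and 4 fell with KO 3 and KO 4 alone. Of the other GTPases 3 to 5, 2 and 1 fell in those settings. The role medians with 1 library left out were -0.31 to -0.21 for type I targets, -0.21 to -0.08 for GTPases and -0.25 to 0.06 for antigen processing. With the covariate they were -0.22, -0.00 and -0.25. The cause of these shifts was not tested, and some of these fits also held fewer libraries.

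With the replicate number as a block, 750 of all genes rose and 941 fell, 9 members fell, and 4 genes of the pathway lists rose and 7 fell. WT and KO libraries of the same number had correlations of their deviations of -0.42 to 0.09, none was its partner's best match, and the libraries share only a number.

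The sign changes were in members that did not pass. With the epithelial covariate and on KO 3 and KO 4 alone, in that order, Ifi35 was at -0.012 and -0.0069, Isg15 at -0.24 and -0.54, Oasl1 at -0.20 and -0.14, Ddx58 at 0.077 and 0.081, Irf1 at -0.13 and -0.21, Irgm2 at 0.0098 and 0.0036 and Igtp at 0.025 and 0.034. On KO 3 and KO 4 alone Irf9 was at 0.025 and Gbp3 at 0.015. With 1 library left out, 4 members changed sign in 3 fits each. Isg15 ranged from -0.069 to 0.38, negative without WT 2, KO 2 or KO 5. Oas2 ranged from -0.23 to 0.087, positive without WT 2, WT 3 or KO 3. Irgm1 ranged from -0.032 to 0.089, negative without WT 2, WT 3 or KO 3. Psmb8 ranged from -0.25 to 0.065, positive without WT 1, KO 3 or KO 4. Oas3, Mx1, Oas2, Rsad2 and Mx2 had a group mean under 1 CPM in at least 1 genotype, where depth limits precision.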
